A study of Mus musculus with 12 samples.

Results

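The IGF1 system of the liver was examined in F1 male mice as 10 genes, taken by symbol as a family with earlier results of these data known: Igf1, Igfals, Igf1r and the IGF binding protein genes Igfbp1 to Igfbp7. All 10 were found among the 21683 genes of the table, and 9 of them passed the filter on low counts together with 12459 genes in all. The exception was Igfbp6. The data are RNA-seq estimated counts from 12 livers, 6 from offspring of sires given corn oil vehicle (paternal control) and 6 from offspring of sires given dicyclohexyl phthalate (paternal DCHP), a plasticizer. All animals were wild-type. The sires, 8 weeks old at the start, were gavaged for 4 weeks. The F1 males of both groups received a high-fat diet from 3 weeks of age for 9 weeks and were therefore 12 weeks old at collection. The offspring themselves were not dosed. Which litter or sire each animal came from is not stated, and p-values therefore rest on the spread among animals, some of which may share a father.

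IGF1 is the hormone through which growth hormone acts on much of the body, and hepatocytes are its main source in plasma. In blood most of it is held in a complex with IGFBP3 or IGFBP5 and the acid-labile subunit, which Igfals encodes. The other binding proteins hold smaller amounts, and IGFBP1 is the member that insulin represses and fasting or stress raises within hours. The animals were restricted from food before tissue collection, per the study's methods.

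Paternal DCHP went with no called difference in this system in F1 liver, and Igfbp1 was the member with the largest difference. Igfbp1 was 2.87-fold higher in mean CPM with paternal DCHP, yet its adjusted p missed the threshold, and 0 of the 9 tested members were called. A gene was called at a false discovery rate (FDR) under 0.1 with a fold change above 1.5, the cut-off of the study, which 1.28% of all tested genes passed. DESeq2 called 1 member, Igfbp1, where the background was 2.62%, and limma-voom called 0 where it was 0.939%. By the unadjusted p, 2 of 9 members were under 0.05, Igfbp1 higher and Igfbp2 lower, against 18.9% of all tested genes. No member separated the groups without overlap, which 2.14% of tested genes did. Only Igfbp1 among the 9 exceeded 1.5-fold, as did 6.60% of tested genes. The log2 fold change was above 0 for 6 of 9 members and for 51.5% of tested genes, with medians of 0.017 and 0.0087.

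**Figure D1:**
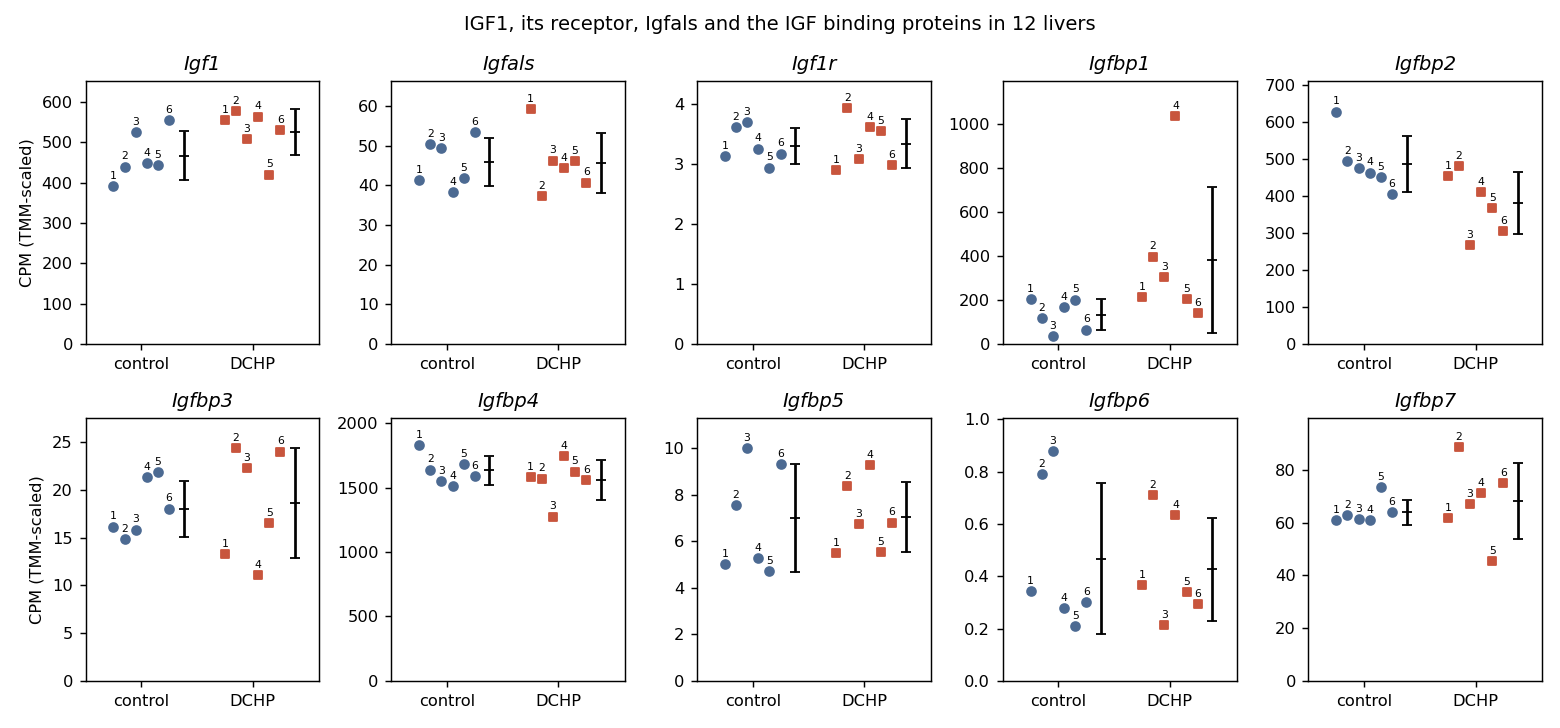
CPM (counts relative to the library's total) of the 10 genes in each liver, with TMM scaling. Circles are paternal control and squares paternal DCHP livers, labelled with the replicate number, and the bar beside each group is the mean ± SD (n = 6). Igfbp1 stands at 1039 CPM in DCHP 4, and in the other genes the groups overlap broadly.

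Igfbp1 lies on chromosome 11 from 7197782 to 7202546 on the plus strand (mm10). It ranged from 38 to 206 CPM in control livers, with a median of 144 CPM. In the paternal DCHP group it ranged from 142 to 1039 CPM, with a median of 260 CPM. CPM is the count relative to the library's total, scaled here with TMM factors. Of the DCHP livers, 5 of 6 lay above the highest control, DCHP 1 (213 CPM) and DCHP 5 (207 CPM) only just, and DCHP 6 (142 CPM) lay within the control range. The groups thus overlapped through 1 liver.

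The mean was 134 ± 70.7 CPM in the control and 384 ± 333 CPM in the DCHP group (SD, n = 6 each). The log2 fold change was 1.52 ± 0.49 (SE), a 2.87-fold difference whose 95% interval ran from 1.38 to 5.97-fold before adjustment. It did not pass the test (edgeR quasi-likelihood adjusted p = 0.129). Over the alternatives, which include other tools, the adjusted p ran from 0.0812 (DESeq2, under the threshold) to 0.234 (edgeR without control 6). The gene was 753rd of 12459 by p, although its absolute log2 fold change exceeded that of 99.5% of tested genes. An exact two-sided permutation test of the mean log2 CPM over the 12 livers gave p = 0.0238 (adjusted p = 0.203 over all tested genes).

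A single animal set much of the size. DCHP 4 was 2.61-fold above the next DCHP liver, DCHP 2 (398 CPM). Without DCHP 4 the log2 fold change was 0.93 ± 0.39 (edgeR adjusted p = 0.230), and the mean of the remaining 5 was 253 ± 100.1 CPM (SD), 1.90-fold the control mean. The ratio of the group medians was 1.80. Without DCHP 6, the liver inside the control range, Igfbp1 was called (log2 fold change 1.70 ± 0.48, edgeR adjusted p = 0.0883). That liver is singled out by its own Igfbp1 value, so leaving it out widens the difference. Genes called in all also rose without it, from 159 to 233.

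Igfbp1 also varied widely where no sire had been exposed. Among the 6 controls the highest liver was 5.42-fold above the lowest, and the SD of log2 CPM within controls was 0.98, larger than for 97.7% of tested genes. Control 3 (38 CPM) and control 6 (66.9 CPM) were the low ones. Within both groups together the SD was 1.00, against a median of 0.23 over all tested genes.

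The promoter of Igfbp1 holds the sequence through which insulin is known to act on the human gene. It is a pair of inverted half-sites, CAAAACA and TATTTTG, that FoxO transcription factors bind and that are set apart by 4 bases. The 150 bases before the start of Igfbp1 and of its neighbour Igfbp3 are shown because these genes adjoin on the chromosome and only the former holds the element. The third stretch is the 100 bases before a start of Igfals. Sequences are from RefSeq (GRCm38.p6, the same build as mm10) and run 5′ to 3′ on the strand of the gene. Capitals mark the insulin response element and an HNF1 site in Igfbp1 and a STAT5 site in Igfals.
Igfbp1, chr11:7197637-7197786, plus strand: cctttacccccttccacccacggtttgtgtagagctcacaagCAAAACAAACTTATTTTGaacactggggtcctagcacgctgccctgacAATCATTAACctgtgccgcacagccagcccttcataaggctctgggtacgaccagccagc
Igfbp3, chr11:7213924-7214073, minus strand: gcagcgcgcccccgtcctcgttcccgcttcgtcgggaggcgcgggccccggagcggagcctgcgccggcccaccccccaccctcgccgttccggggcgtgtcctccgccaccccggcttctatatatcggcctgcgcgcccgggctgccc
Igfals, chr17:24878131-24878230, plus strand: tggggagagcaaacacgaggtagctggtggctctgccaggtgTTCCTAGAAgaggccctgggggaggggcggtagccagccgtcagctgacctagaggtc

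Promoter windows were found for all 10 members, 13 windows in all because Igfals and Igfbp2 have several starts. They were searched on both strands over the 250 bases before the start, as were the 32851 windows of all genes. The paired element lay from 108 to 91 bases before the start of Igfbp1 and in no other window, 1 of 32851. Only exact matches were counted, and an exact string of this length is rare in any sequence. Elements that differ from it by a base would not have been found. Its separate parts are shorter and therefore more common, CAAAACA in 5.56% and TATTTTG in 3.95% of windows, and overlap the paired element in Igfbp1. An HNF1 motif (GTTAAT and ATT set apart by 1 base) lay 60 to 51 bases before the Igfbp1 start and is present in 0.371% of windows. HNF1 factors are hepatocyte regulators that the mammalian IGFBP1 promoter is known to use.

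No other member had the paired element or the HNF1 motif in these windows. The FoxO core GTAAACA was found in 1 member window, of Igfals (3.17% of all windows). The STAT5 motif, TTC and GAA set apart by 3 bases, was found in 2 windows, both of Igfals (7.02% of all). STAT5 is the factor that growth hormone activates in hepatocytes. The Igfbp3 stretch has a GC content of 78.7%, against 53.3% in Igfbp1. These matches describe the letters of the windows and not the binding of a factor.

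Igfbp3 is the next gene after Igfbp1 on chromosome 11. It runs toward it on the minus strand from 7206086 to 7213923, with 3539 bases and no coding gene between them. Its product carries most IGF1 in plasma, and in rat liver it is made by non-parenchymal cells. It ranged from 14.8 to 21.9 CPM in controls (median 17.1) and from 11.1 to 24.4 CPM with paternal DCHP (median 19.4). The DCHP livers lay on both sides of the control range, 3 above it (DCHP 2, DCHP 3 and DCHP 6) and 2 below it (DCHP 1 and DCHP 4). At 0.047 ± 0.19 (SE) its log2 fold change was near 0 (edgeR adjusted p = 0.916), and the 95% interval spanned 0.783 to 1.36-fold. DCHP 4, which had the highest Igfbp1, had the lowest Igfbp3 of the 12 livers.

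Igfbp2 was the only other member with an unadjusted p under 0.05. Its product is a secreted binding protein of fetal and fasting liver, and its gene lies on chromosome 1 from 72824503 to 72852474. It ranged from 406 to 628 CPM in controls (median 469) and from 268 to 482 CPM with paternal DCHP (median 389). The DCHP livers DCHP 3 (268 CPM), DCHP 6 (305 CPM) and DCHP 5 (367 CPM) lay below the lowest control, and control 1 (628 CPM) above all others. The means were 486 ± 75.4 and 381 ± 83.4 CPM (SD, n = 6 each), and at -0.35 ± 0.14 (SE) the log2 fold change missed the threshold (edgeR adjusted p = 0.205). The 95% interval ran from 0.634 to 0.968-fold, and the exact two-sided permutation p was 0.0455 (adjusted p = 0.261). When the trend of each library on gene length and GC content was removed, the log2 fold change was -0.21 (edgeR adjusted p = 0.470).

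Igfbp5 adjoins Igfbp2 in the same tail-to-tail arrangement, with 5457 bases and no coding gene between them. Its product binds extracellular matrix and can also join the complex with the acid-labile subunit. It was expressed at 4.73 to 10.01 CPM in controls and 5.50 to 9.27 CPM with paternal DCHP. The log2 fold change was 0.0064 ± 0.21 (SE, edgeR adjusted p = 0.988), with a 95% interval of 0.737 to 1.37-fold and a sign that turned under upper-quartile scaling.

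Igf1 itself lies on chromosome 10 from 87858265 to 87937042. It ranged from 391 to 554 CPM in controls (median 446) and from 420 to 576 CPM in the paternal DCHP group (median 543). DCHP 1, DCHP 2 and DCHP 4 were slightly above the highest control, control 6, and DCHP 5 was below the control median. Means were 467 ± 60.6 and 525 ± 57.1 CPM (SD, n = 6 each). The log2 fold change was 0.17 ± 0.099 (SE, edgeR adjusted p = 0.366), with a 95% interval of 0.971 to 1.30-fold. An antisense gene, Igf1os, is annotated over 5117 bases of the Igf1 locus, and the strand setting of the counting is not given, so that reads of the pair cannot be told apart.

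Igfals, the gene of the acid-labile subunit, ranged from 38.3 to 53.3 CPM in controls and from 37.2 to 59.1 CPM with paternal DCHP. Medians were 45.6 and 45.2 CPM. Its log2 fold change was -0.0055 ± 0.11 (SE, edgeR adjusted p = 0.984), with a 95% interval of 0.843 to 1.18-fold, and the sign turned when TMM factors were taken without the 20 most abundant genes. Igf1r, the tyrosine kinase receptor that IGF1 activates, was expressed at only 2.94 to 3.71 CPM in controls and 2.90 to 3.94 CPM with paternal DCHP. Its log2 fold change was 0.017 ± 0.13 (edgeR adjusted p = 0.960), also with a sign that turned under upper-quartile scaling. For Igf1, Igfals and Igf1r the 95% intervals lay within 1.5-fold in either direction.

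Igfbp4 encodes a binding protein that withholds IGFs from the receptor until the protease PAPP-A cleaves it. It had the highest CPM of the family and varied little, from 1513 to 1829 CPM in controls and from 1275 to 1745 CPM with paternal DCHP. Its log2 fold change was -0.067 ± 0.082 (SE, edgeR adjusted p = 0.692), with a 95% interval of 0.845 to 1.079-fold. DCHP 3 (1275 CPM) was the only DCHP liver below the control range. Its SD of log2 CPM within groups, 0.13, was among the lower 13.8% of tested genes.

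Igfbp7, a low-affinity relative that endothelial cells express, stood at 60.8 to 73.3 CPM in controls and spread more widely with paternal DCHP, from 45.4 CPM in DCHP 5 to 88.5 CPM in DCHP 2. The log2 fold change was 0.093 ± 0.12 (SE, edgeR adjusted p = 0.716). On the opposite strand Igfbp7 is overlapped by the antisense gene Gm34648 over 7085 bases and the RNA polymerase subunit gene Polr2b over 85 bases. Igfbp6, whose product prefers IGF2, had 6 to 23 estimated counts in each control liver and 7 to 20 in each DCHP liver. Without the filter on low counts its log2 fold change was -0.13 ± 0.46 (SE, edgeR adjusted p = 0.914). At this depth a difference up to 1.81-fold higher or to 0.464-fold lay within its 95% interval.

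**Figure D2:**
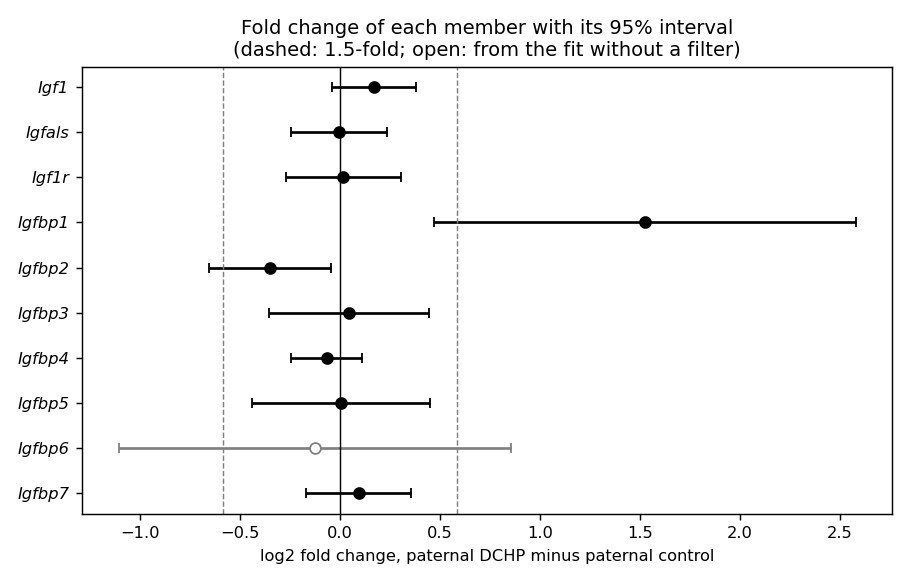
Log2 fold change of each gene, paternal DCHP minus paternal control, from the edgeR fit on 12 livers. Bars are 95% intervals before adjustment, dashed lines mark 1.5-fold, and the open symbol (Igfbp6) comes from the fit without a filter on low counts. Igfbp1 at 1.52 lies beyond the line with the widest interval of the tested genes, and Igfbp2 at -0.35 is the lowest.

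Levels of different genes were compared per kilobase of exonic length, using the union of annotated exons. In control livers Igfbp4 was highest (370 ± 25.7 CPM per kb), followed by Igfbp2 (263 ± 40.8) and Igfbp1 (87.7 ± 46.4), values being CPM per kb ± SD with n = 6. Igfbp7 (52.8 ± 3.96 CPM per kb) and Igf1 (47.1 ± 6.12) came next. Their ranges overlapped each other, and the range of Igfbp1 overlapped that of Igfbp7. Below them were Igfals at 14.4 ± 1.90, Igfbp3 at 5.76 ± 0.95 and Igfbp5 at 1.16 ± 0.39 CPM per kb. Igfbp6 (0.42 ± 0.26 CPM per kb) overlapped both Igfbp5 and the lowest member, Igf1r (0.197 ± 0.018). With paternal DCHP the order differed in a single step, Igfbp1 (252 ± 218 CPM per kb) standing before Igfbp2 (206 ± 45.2), and the wide range of Igfbp1 overlapped those of Igfbp2 and of Igfbp4 (353 ± 35.1), which did not overlap each other. The step rested on DCHP 4. Without it the means were 166 ± 65.7 for Igfbp1 and 203 ± 49.8 CPM per kb for Igfbp2 (SD, n = 5), and the medians over all 6 DCHP livers were 170.4 and 210.4 CPM per kb.

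Taken as a share of the 7 binding protein transcripts per kb, Igfbp1 made up 3.61% to 16.1% in control livers and 13.7% to 50.0% with paternal DCHP. The mean shares were 10.8 ± 5.00% and 25.9 ± 13.2% (SD, n = 6 each). Igfbp2 took 33.7 ± 2.77% in controls and 24.3 ± 5.12% with paternal DCHP, and Igfbp4 47.7 ± 3.43% and 42.2 ± 8.37%. The shares add to the whole, so that a larger part of one gene lowers the others. The summed level was 781 ± 97.1 and 875 ± 259 CPM per kb, and DCHP 4 had the highest sum (1363 CPM per kb).

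**Figure D3:**
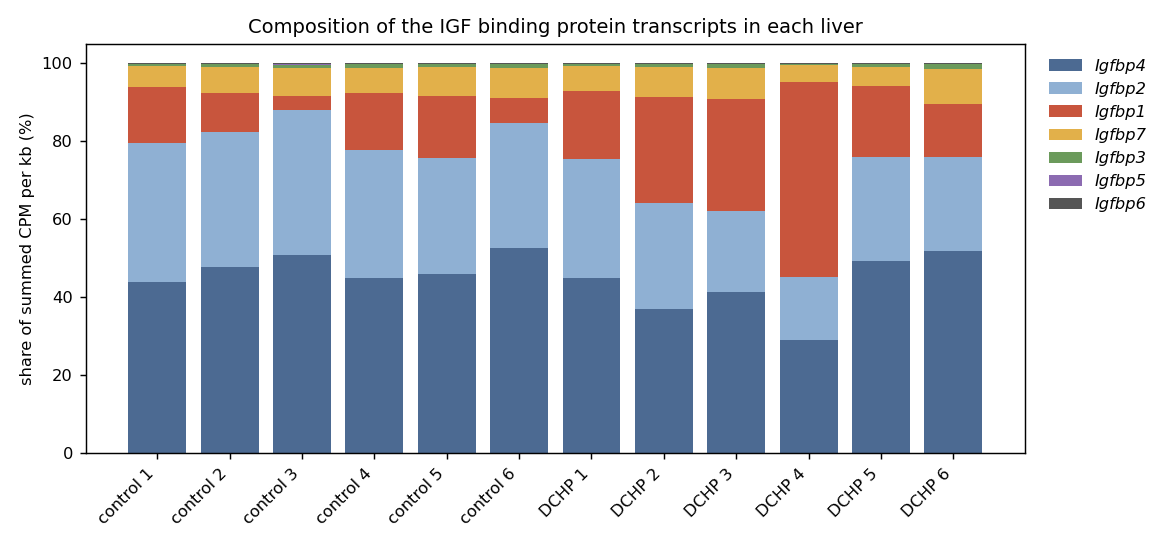
Share of each gene in the summed CPM per kb of Igfbp1 to Igfbp7 in each liver, in percent. In DCHP 4 Igfbp1 makes up 50.0% of the sum, against at most 16.1% in any control, while Igfbp3, Igfbp5 and Igfbp6 are thin bands throughout.

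How the genes moved together was tested in 6 pairs over the 12 livers, on log2 CPM. Igf1 was inversely related to Ghr, the gene of the growth hormone receptor that drives it. Pearson's r was -0.64 (permutation p = 0.0198, adjusted p = 0.0634 over the 6 pairs) and Spearman's rho -0.73 (permutation p = 0.00981, adjusted p = 0.0589). The relation was similar within each group, with r of -0.59 in controls and -0.54 with paternal DCHP, and r was -0.62 without the 2 livers farthest from the Igf1 median (control 1 and DCHP 5). Both adjusted p-values were under 0.1, the FDR threshold used for calling genes. The pairs were, however, chosen with earlier results of these data known.

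Igfbp5 and Igfbp6 had r of 0.67 (permutation p = 0.0211, adjusted p = 0.0634) and rho of 0.60 (p = 0.0422, adjusted p = 0.127), with 0.67 in controls and 0.68 with paternal DCHP. Without control 3 and control 5 it was 0.48, so that part of it rests on these livers, and Igfbp6 rests on few counts. Igf1 and Igfbp1 had r of 0.12 over all livers (permutation p = 0.702, adjusted p = 0.842), but -0.85 within controls and 0.42 within the paternal DCHP group. Their rho was 0.31 (p = 0.321, adjusted p = 0.642), and r without control 1 and DCHP 5 was 0.23. The difference between the groups was not tested.

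Between partners in the plasma complex no relation passed the test. Igf1 and Igfals had r of 0.23 (permutation p = 0.480, adjusted p = 0.842) and rho of 0.021 (p = 0.956, adjusted p = 0.956), with r of 0.69 within controls, -0.11 with paternal DCHP and 0.18 without the same 2 livers. For Igf1 and Igfbp3 r was -0.023 (permutation p = 0.941, adjusted p = 0.941) and rho 0.063 (p = 0.852, adjusted p = 0.956). Within controls that r was -0.0063, with paternal DCHP -0.038 and without control 1 and DCHP 5 -0.19. Igfbp1 and Igfbp2 had r of -0.13 (permutation p = 0.686, adjusted p = 0.842) and rho of -0.15 (p = 0.636, adjusted p = 0.954). Within controls their r was 0.42, with paternal DCHP 0.34 and without control 3 and DCHP 4 -0.033.

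**Figure D4:**
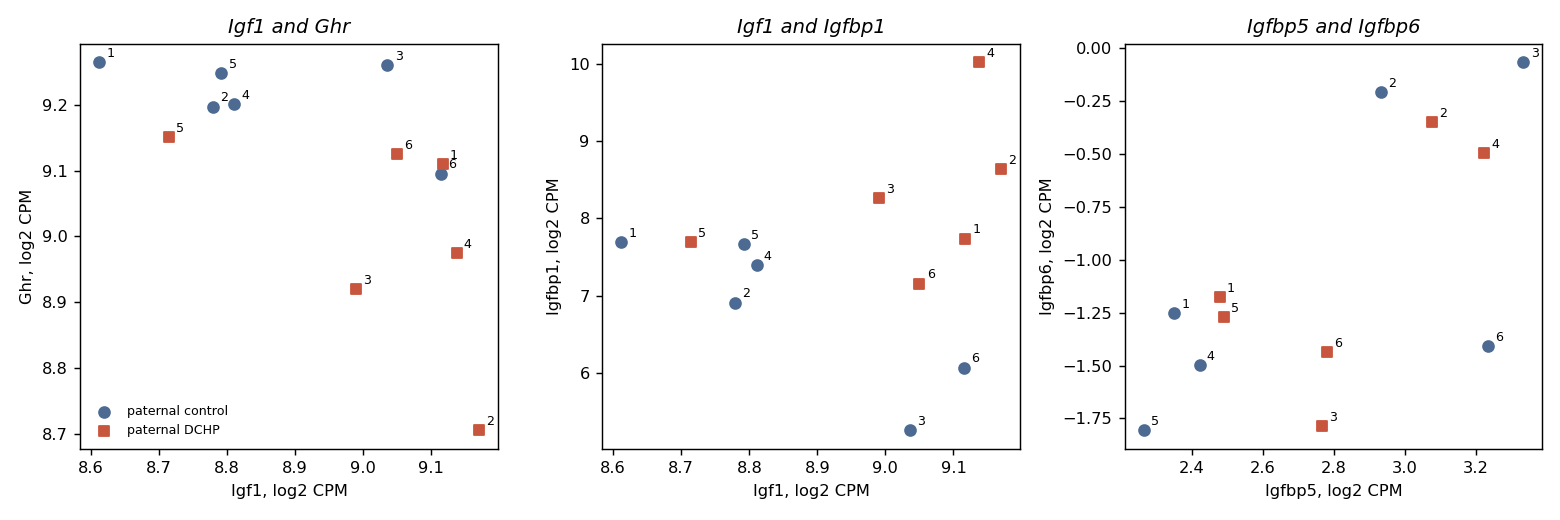
Log2 CPM of 3 of the 6 pairs in the 12 livers, labelled by replicate number (circles, paternal control; squares, paternal DCHP). Igf1 and Ghr fall along an inverse line in both groups (r = -0.64). Igf1 and Igfbp1 run in opposite directions within controls (r = -0.85) and not within paternal DCHP livers (0.42).

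Ranked over 12450 tested genes outside the family, the patterns most like Igfbp1 across the 12 livers were those of Slc38a2, Ccp110 and Dusp8. Slc38a2, a neutral amino acid transporter gene, had Pearson's r of 0.95, with 0.98 within controls and 0.89 within paternal DCHP livers. Ccp110, a centriole gene, had r of 0.94 and Dusp8, a phosphatase gene of MAP kinases, 0.92. Dusp8 was called higher with paternal DCHP (log2 fold change 2.04 ± 0.46, SE, edgeR adjusted p = 0.0535), and Slc38a2 (0.56 ± 0.22, edgeR adjusted p = 0.196) and Ccp110 (0.49 ± 0.14, edgeR adjusted p = 0.103) were not. For Igf1 the most similar were Lacc1 (r = 0.90), Fbxo6 (0.89) and the asparaginyl-tRNA synthetase gene Nars (0.88). These are the highest of many values and are given as a description.

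The other genes of the IGF axis were taken from a list of ligand, receptors, adaptors and proteases with 24 genes, 14 of them tested. Of these edgeR called 0, with 3 higher and 0 lower at an unadjusted p under 0.05, while DESeq2 called 1 higher and limma-voom 0. Among all tested genes edgeR called 0.963% higher and 0.313% lower, and DESeq2 2.62% and limma-voom 0.939% in either direction. At an unadjusted p under 0.05, 10.6% were higher and 8.34% lower. In the list 13 of 14 log2 fold changes were above 0, with a median of 0.29. Among all tested genes 51.5% were above 0, with a median of 0.0087. Grb10, an adaptor that restrains insulin and IGF1 receptors, had the smallest p. In controls it stood at 2.78 ± 0.55 CPM and in the DCHP group at 4.4 ± 1.53 CPM (SD, n = 6 each), a log2 fold change of 0.66 ± 0.22 (SE, edgeR adjusted p = 0.137). Irs2, a substrate of both receptors, had 0.96 ± 0.35 (edgeR adjusted p = 0.165) and is named after its values were seen. Igf2, the fetal ligand, and the IGFBP4 protease gene Pappa were below the filter, each with means under 1 CPM in both groups.

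The growth hormone axis upstream of Igf1 had 11 of 12 genes tested, of which edgeR called 1 higher and 0 lower and DESeq2 1 higher, with a median log2 fold change of 0.70. At an unadjusted p under 0.05, 1 was higher and 2 were lower. Among all tested genes edgeR called 0.963% higher and 0.313% lower, and DESeq2 2.62% and limma-voom 0.939% in either direction. At an unadjusted p under 0.05, 10.6% of them were higher and 8.34% lower. The called gene was Socs3, a feedback inhibitor of cytokine and growth hormone receptors (1.54 ± 0.40, SE, edgeR adjusted p = 0.0807). The call was lost without any 1 of controls 1, 3, 4, 5 and 6 or DCHP 1, 4 and 5, and limma-voom called 0. Cish (1.63 ± 0.78, edgeR adjusted p = 0.273) and Socs2 (0.92 ± 0.52, edgeR adjusted p = 0.351), STAT5 targets as Igf1 is, and Ghr (-0.21 ± 0.080, edgeR adjusted p = 0.188) did not pass, nor did Prlr, the prolactin receptor gene (-0.45 ± 0.13, edgeR adjusted p = 0.104). These 4 are given for their part in the pathway, with their values known. The positive values of Cish and Socs2 came from DCHP 1 and DCHP 4. Log2 CPM of Cish was 6.46 and 5.82 in these livers, and that of Socs2 4.88 and 5.89. Every remaining DCHP liver lay inside the control range, 1.41 to 4.42 for Cish and 2.11 to 4.17 for Socs2.

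Of 10 tested FoxO genes and genes that insulin represses, the class to which Igfbp1 belongs, edgeR called 0, with 3 higher and 1 lower at an unadjusted p under 0.05, DESeq2 1 higher and limma-voom 0. The median log2 fold change was 0.14. Among all tested genes 10.6% were higher and 8.34% lower at that unadjusted p, and edgeR called 1.28%, DESeq2 2.62% and limma-voom 0.939%. Pdk4, which switches off glucose oxidation, had the smallest p (1.26 ± 0.40, SE, edgeR adjusted p = 0.126). Pck1 (0.18 ± 0.13, edgeR adjusted p = 0.463) and G6pc (0.12 ± 0.16, edgeR adjusted p = 0.695), which carry out gluconeogenesis and respond to insulin with Igfbp1, had small log2 fold changes. They too were named with their values known. The summed level of the list was lowest in control 3 (3209 CPM), the liver with the lowest Igfbp1, and highest in DCHP 4 (5555 CPM). DCHP 2 (5519 CPM) and control 5 (5475 CPM) came close to DCHP 4, although their Igfbp1 was only 398 and 203 CPM. Pck1 was the largest part of the sum, its group means being 3398 (control) and 3860 CPM (DCHP). The sum therefore says little about the other genes of the list.

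**Figure D5:**
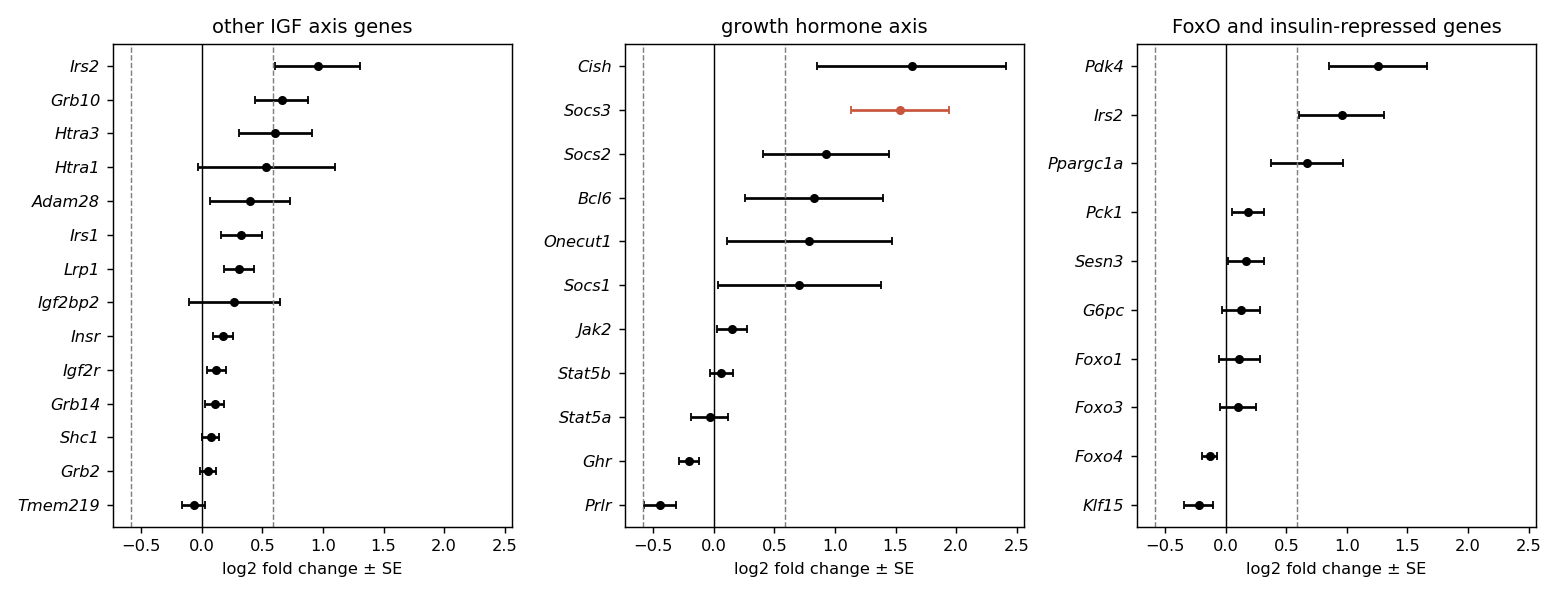
Log2 fold change ± SE, paternal DCHP minus paternal control, for the tested genes of 3 lists, with dashed lines at 1.5-fold. Socs3 (1.54) is the single called gene, and 13 of 14 other IGF axis genes lie above 0, as do 51.5% of all tested genes.

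The liver with the highest Igfbp1 also had high levels of inflammation genes. The summed acute-phase level reached 40285 CPM in DCHP 4, whereas the remaining DCHP livers lay between 15158 and 21874 CPM and controls between 14955 and 15595 CPM. Of those remaining livers only DCHP 3 lay inside the control range, and DCHP 1, DCHP 2, DCHP 5 and DCHP 6 lay above it. The remaining livers did not rank by Igfbp1. DCHP 3, with Igfbp1 at 307 CPM, had the 15158 CPM, and DCHP 5, with Igfbp1 at 207 CPM, the 21874 CPM. Of the 19 acute-phase genes 5 were called higher and 0 lower, with a median log2 fold change of 0.60 (DESeq2 called 6 and limma-voom 2). All 19 had a log2 fold change above 0, against 51.5% of all tested genes. At an unadjusted p under 0.05, 15 were higher and 0 lower, against 10.6% and 8.34% of all tested genes. Among the called genes Mt2, Steap4, Apcs and Serpina3n had the smallest p. Of all tested genes edgeR called 0.963% higher and 0.313% lower. DESeq2 called 2.62% in either direction and limma-voom 0.939%. The summed immediate-early level was 2873 CPM in DCHP 1 and 1246 CPM in DCHP 4. The remaining DCHP livers lay between 516 and 900 CPM and controls between 434 and 728 CPM. There 6 of 26 tested genes were called higher and 0 lower, with a median log2 fold change of 1.02 (DESeq2 called 8 and limma-voom 2). Of these 26 genes 21 had a log2 fold change above 0, and 12 were higher and 0 lower at an unadjusted p under 0.05. Among those called, the smallest p belonged to Klf6, Btg2, Atf3 and Fosl2. Of 11 tested integrated stress response genes 1 was called higher, Atf3, and the summed level was highest in DCHP 2 (512 CPM, against at most 342 CPM in the other livers). Most of the DCHP 2 sum was the single gene Atf5, at 377 CPM there against a control mean of 197 CPM. The part of these lists in the Igfbp1 result was not tested.

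Total estimated counts lay between 23794728 and 30445338 per library, and mitochondrial counts made up 5.22% to 8.03%. Hepatocyte markers summed to 73595 to 87371 CPM in controls and 69366 to 98698 CPM with paternal DCHP. Of these 0 of 9 were called by edgeR, DESeq2 or limma-voom, and their defining gene Alb was present throughout. Of the 9, 7 had a log2 fold change above 0. Ttr had the smallest p and was lower (-0.29 ± 0.070, SE, edgeR adjusted p = 0.0675), short of the fold threshold. Its groups did not overlap (4183 to 4699 CPM in controls, 3381 to 3977 CPM with paternal DCHP), as in 2.14% of tested genes. Among markers of cells that could hold Igfbp3, Igfbp5, Igfbp6 and Igfbp7 RNA edgeR and limma-voom called 0, and DESeq2 called 1, a Kupffer cell gene, higher. For 12 sinusoidal endothelial genes sums were 283 to 334 CPM in controls and 283 to 352 CPM with paternal DCHP, and for 16 stellate and mesenchymal genes 371 to 481 and 329 to 516 CPM. For 12 Kupffer cell genes they were 207 to 329 and 245 to 717 CPM, highest in DCHP 5. Their log2 fold changes were above 0 in 12 of 12, against 51.5% of all tested genes. At an unadjusted p under 0.05, 3 endothelial genes were higher and 1 lower, 3 stellate genes higher and 1 lower, 4 Kupffer cell genes higher and 0 lower, and 2 hepatocyte genes higher and 2 lower. Among all tested genes 10.6% were higher and 8.34% lower at that p, and edgeR called 1.28%, DESeq2 2.62% and limma-voom 0.939%. Medians of log2 fold changes were 0.15, 0.13, 0.12 and 0.51 for hepatocyte, endothelial, stellate and Kupffer genes. The members with the smallest p were Dnase1l3, Pdgfrb and Cd163 in the last 3. Cholangiocyte (8 tested, median 0.37, smallest p for Tspan8) and mesothelial genes (3 tested, median -0.15, smallest p for Upk3b) had 0 called by any of these tools, with 1 and 0 higher and 0 lower at an unadjusted p under 0.05. In whole liver, fewer cells of a type and less RNA per cell cannot be told apart.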

How the data were processed

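Liver RNA-seq of 12 F1 male mice was used. The values are estimated counts, which the authors deposited as a table with 1 row per gene symbol and 1 column per library, and per the labels reads were processed against mm10. No aligner, counter, annotation or strand setting is given in the sources used here. The deposited estimated counts were rounded, filtered with filterByExpr in edgeR 4.0.16 (R 4.3.3, minimum count 10), scaled by TMM and compared with the quasi-likelihood test, all 12 libraries entering and no covariate. P-values were adjusted by Benjamini-Hochberg over all 12459 tested genes. SE was derived from the F statistic (absolute log2 fold change over its square root), and 95% intervals use the moderated degrees of freedom. Log2 CPM used a prior count of 2. Positions and exonic lengths came from GENCODE vM21, matched by symbol, and promoters from RefSeq. Relations between genes used 100000 permutations, two-sided.

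The members, gene lists and pairs were chosen with earlier results of these data known. Besides the members, the genes named were up to 4 called genes of each list by p, or else the tested gene with the smallest p, and the 3 genes most correlated with Igf1 and with Igfbp1. Alternatives were other scaling factors, filters and thresholds, DESeq2 1.42.0, limma-voom (limma 3.58.1) with and without quality weights, robust dispersions, a block for replicate number, 1 surrogate variable (sva 3.50.0), removal of length and GC trends, and each library left out. The exact permutation test was added after the data were seen. No libraries of a group were duplicates, with a chi-square of at least 16.6 per degree of freedom in 30 pairs.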

Additional observations from a re-analysis of the deposited data

Results flagged for a closer look

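Igfbp1 in the paternal DCHP group was marked because DCHP 4, at 1039 CPM, lay far from the next liver (398 CPM), the gap being 0.714 of the whole range of the group. Igfbp7 in the control group was marked because control 5, at 73.3 CPM, lay above the others, which ended at 64.1 CPM, with a gap of 0.739 of the range. Both exceed Dixon's critical value for 6 samples, and chance marks about 1 in 20 groups when values are normally distributed. The rule was applied to CPM and not to log2 CPM. In log2 CPM of Igfbp1, DCHP 4 stood at 10.02, DCHP 2 at 8.64 and DCHP 6, the lowest, at 7.15. On that scale the gap is a smaller part of the range, so the Igfbp1 mark depends on the scale. Over the 10 genes and both groups 2 of 20 sets were marked.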

How the results depend on the processing

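Igfbp1 was called by DESeq2 (log2 fold change 1.52, adjusted p = 0.0812) and without DCHP 6, in 2 of 26 alternatives, and its log2 fold change was positive in all 26, from 0.93 without DCHP 4 to 1.70 without DCHP 6. Igf1, Igfbp2, Igfbp4 and Igfbp7 kept their direction and stayed uncalled in all 26, but their sizes depended on the setting. The log2 fold change of Igf1 ran from 0.089 after trend removal to 0.29 with 1 surrogate variable (edgeR adjusted p = 0.128). That of Igfbp7 ran from 0.0037 without DCHP 2 to 0.25 with 1 surrogate variable. Igfbp2 ran from -0.45 to -0.21 and Igfbp4 from -0.12 to -0.015. Genes called numbered 326 with DESeq2, 82 with 1 surrogate variable, 36 at an FDR under 0.05 and 479 without a fold threshold. With 1 library left out they numbered from 7 (without control 3) to 233 (without DCHP 6). They were also below 159 by over 1.5 times without control 1 (103), control 4 (33), control 5 (38), control 6 (33), DCHP 4 (68) or DCHP 5 (77). Members called numbered 1 with DESeq2 and 0 to 1 with 1 library left out. Other IGF axis genes called numbered 1 with DESeq2 and 0 to 2 with a library left out (2 without DCHP 6). Growth hormone axis genes called numbered 0 with limma-voom, with and without weights, with robust dispersions, with 1 surrogate variable and without DCHP 1 and DCHP 4 together, 2 (1 higher, 1 lower) after removal of length and GC trends, and 0 to 1 with a library left out.

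Signs turned only where the main log2 fold change was smaller in size than its SE. For Igfals the log2 fold change was 0.0017 by TMM without the 20 most abundant genes, 0.00089 without a filter, 0.0037 with at least 1 CPM in 6 libraries, 0.022 with a surrogate variable, 0.057 after trend removal and -0.094 to 0.049 with a library left out. For Igf1r it was -0.0028 by upper-quartile factors, -0.0081 with weighted limma-voom, -0.15 after trend removal and -0.036 to 0.057 with a library left out. For Igfbp5 it was -0.014 by upper-quartile factors, -0.032 after trend removal, -0.029 without DCHP 1 and DCHP 4 and -0.085 to 0.14 with a library left out. For Igfbp3 it was -0.0016 as a difference of mean log2 CPM and -0.046 to 0.17 with a library left out, and for Igfbp6 -0.34 to 0.14. The cause was not tested.

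Replicate numbers gave no pairing: same-numbered livers correlated from -0.12 to 0.17, and 3 of 12 correlated best with their own number. With the replicate number as a block 59 genes were called, 0 of the growth hormone axis, and Igfbp1 had 1.42 (adjusted p = 0.178). Igfbp6 is limited by depth.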
